A study of Rattus norvegicus with 16 samples.

Results

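The left ventricle of rats 7 weeks after 5/6 nephrectomy (5/6Nx), an operation that removes most of the kidney tissue, was compared with the left ventricle of rats 7 weeks after sham surgery. All samples that carry the week 7 label were taken, which gave 4 of the 16 libraries in the series, 2 after 5/6Nx and 2 after sham. All animals were male Sprague Dawley rats kept on 0.4% Dyets chow, operated on at 10 weeks of age and 17 weeks old at collection, and 5/6Nx was done by excision. RNA of 2 to 3 rats was pooled for each library, so that a group rests on 2 pools and no value of a single animal exists. The other 12 libraries form the same pairs of groups at weeks 2, 4 and 5, each week with its own sham group. The series describes gene expression of the heart in chronic kidney disease over time, and the week 7 comparison gives its latest point.

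Loss of kidney mass raises blood pressure, retains salt and fluid and lets uraemic solutes, phosphate and phosphate-regulating hormones rise. The heart meets this load with growth of its muscle cells, scarring of the tissue between them and entry of immune cells, the picture known as uraemic cardiomyopathy. A loaded heart muscle typically raises natriuretic peptides and uses less fatty acid as fuel.

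For each locus the tables of the authors hold 1 abundance per group, in FPKM (fragments per kilobase of transcript and mega fragments, a level per length; the unit was inferred from the tool, Cuffdiff). No spread between libraries was in them, so whether single pools of the groups overlap cannot be read. Differences are given as the log2 of 5/6Nx over sham with a standard error derived from the p-value in the authors' deposited table. For the 121 called loci at the smallest deposited p, 5e-05, this error comes to 0.247 of the log2 fold change, and a smaller true p would make it narrower. The deposited statistics were not used for errors and do not match them. At that same p they were -2.716 for Ctsl1 and -10.54 for Spp1. An error taken from the statistic would be wider than the one printed for Ctsl1 and narrower for Spp1. Printed errors, and the test between weeks that uses them, are therefore approximate. A locus is called, and is said to rise or fall, when the authors' table marks it as significant (q-value under 0.05). Directions follow the column names. The deposited test statistic had the opposite sign in all 13645 loci that could be compared, unlike in the other weeks, so an exchange of the 2 column names would turn each rise given here into a fall and each fall into a rise. The 5/6Nx libraries held 44.5 and 23.6 M reads (M, mega) and the sham libraries 49.8 and 51.1 M. Of the reads, 94.5% to 94.7% mapped, and 96.0% to 96.2% of bases had a quality of at least 30, against 93.2% to 94.5% in the 12 libraries of other weeks. That higher quality is shared by both week 7 groups, whereas the depth was lower after 5/6Nx, with 68.1 M reads in all against 101 M.

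Among 13665 tested loci 239 were called, which is 1.75% of them. A gene list with 0 calls below is near that share, and its lack of calls says little about its members. The calls were mostly rises, with 196 loci higher in 5/6Nx (1.43%) and 43 lower (0.315%). Before adjustment 1475 loci had a p-value under 0.05 in the authors' deposited table, 861 of them higher and 614 lower. At a q-value under 0.10 there were 347 loci (2.54%). The median log2 fold change was 1.48 over the loci that rose, -1.30 over those that fell and -0.01 over all tested loci. At least a 4-fold change was seen in 51 of the loci that rose and 2 of those that fell. Loci that rose were low to moderate in level, with a median of 6.11 FPKM in sham and 20.7 FPKM in 5/6Nx, and those that fell had medians of 22.2 and 8.91 FPKM. A name was given for 207 called loci, 178 of which rose and 29 of which fell.

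**Figure D1:**
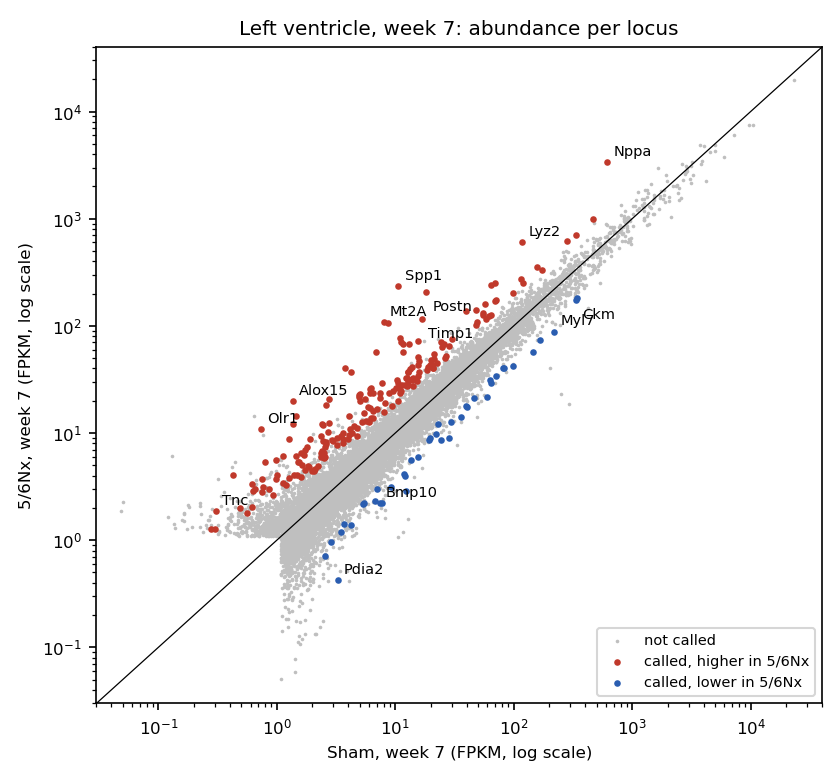
Abundance of each tested locus in sham (x axis) and 5/6Nx (y axis) at week 7, in FPKM on log scales, with called loci in red (higher, 196 loci, of which 3 at 0 in sham are not drawn) and blue (lower, 43 loci, of which 2 at 0 in 5/6Nx are not drawn). Red points lie mostly at low and moderate levels, and Nppa, from 613 to 3362 FPKM, lies above all other red points.

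Natriuretic peptide and muscle stress genes moved unevenly. Nppa, which encodes atrial natriuretic peptide, a hormone of stretched heart muscle, lies at chr5:168466308-168467618 in rn5 and had 613 FPKM in sham and 3362 FPKM in 5/6Nx (log2 fold change 2.46 ± 0.61). It rose, and was the most abundant of the 239 called loci. Nppb, the gene of B-type natriuretic peptide, lies beside it at chr5:168454330-168455633; it had 275 FPKM in sham and 496 FPKM in 5/6Nx (log2 fold change 0.85 ± 0.26) and was not called. Of the 14 tested loci on the natriuretic and fetal gene list 1 rose and 0 fell, with a median log2 fold change of 0.10. Ankrd1, a stretch-responsive protein of the sarcomere and nucleus, had 4040.2 FPKM in sham and 4796 FPKM in 5/6Nx (log2 fold change 0.25 ± 0.32) and was not called. Skeletal actin Acta1, a gene of the fetal programme in rodents, was not called at 234 and 206 FPKM (-0.18 ± 0.28). The myosin heavy chain genes Myh6 and Myh7 share 1 locus in the tables and cannot be told apart, so the shift between them that marks the loaded rodent heart cannot be read. That locus had 2127 FPKM in sham and 1034 FPKM in 5/6Nx (log2 fold change -1.04 ± 0.53) and was not called. Myl1, a myosin light chain of fast skeletal and embryonic muscle, rose from 7.75 to 29.5 FPKM, a log2 fold change of 1.93 ± 0.50.

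The matricellular proteins, which are secreted into the matrix and signal to cells rather than bear load, held the largest share of rises of any function list: 9 of 17 tested loci rose, 0 fell, and the median log2 fold change was 1.22. Spp1 (osteopontin, made by macrophages and activated fibroblasts) lies at chr14:6653083-6659006 and had 10.6 FPKM in sham and 234 FPKM in 5/6Nx (log2 fold change 4.46 ± 1.10). This was the largest rise among called loci with a level in both groups. Postn (periostin, a product of activated fibroblasts), at chr2:163331223-163362445, had 18.3 FPKM in sham and 205 FPKM in 5/6Nx (log2 fold change 3.49 ± 0.86). Tenascin C, the product of Tnc, is scarce in the healthy adult heart, and its gene rose from 0.305 to 1.86 FPKM (2.61 ± 0.64). Thbs1 (thrombospondin 1, an activator of latent TGF-beta) rose from 11.6 to 57 FPKM, a log2 fold change of 2.29 ± 0.57. Ctgf (connective tissue growth factor) was already abundant in sham and had 69.2 FPKM in sham and 249 FPKM in 5/6Nx (log2 fold change 1.85 ± 0.46). Fibronectin, Fn1, had 15.5 FPKM in sham and 51.5 FPKM in 5/6Nx (log2 fold change 1.73 ± 0.43). Wisp2 and Nov, of the same CCN family as Ctgf, rose with log2 fold changes of 2.12 ± 0.52 and 1.22 ± 0.31, and the large proteoglycan Vcan with 1.22 ± 0.30. Of the 8 members not called, Cthrc1 was highest at 1.41 ± 0.69 and Smoc2 lowest at -0.39 ± 0.37.

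Most collagen genes were not called, although 9 of the 10 tested fibrillar and beaded loci lay above sham. Over all tested loci 1.43% rose. Of 10 tested fibrillar and beaded collagen loci 2 rose and 0 fell (median 0.58): Col8a1, a short-chain collagen of vessel walls and injured tissue, had 12.9 FPKM in sham and 67.1 FPKM in 5/6Nx (log2 fold change 2.38 ± 0.59), and Col5a2, which seeds thick fibrils, had 21 FPKM in sham and 40.8 FPKM in 5/6Nx (log2 fold change 0.96 ± 0.26). The main fibrillar collagens were not called. Col3a1 had 259 FPKM in sham and 494 FPKM in 5/6Nx (log2 fold change 0.93 ± 0.31), Col1a1 had 17 FPKM in sham and 26.6 FPKM in 5/6Nx (log2 fold change 0.64 ± 0.27), and Col1a2 was listed at 0 in both groups, so no level of it is known here. Of 14 crosslinking and processing loci 4 rose and 0 fell (median 0.21). Lox, lysyl oxidase, which joins collagen and elastin chains outside the cell, lies at chr18:46713527-46821060 and had 3.76 FPKM in sham and 40.5 FPKM in 5/6Nx (log2 fold change 3.43 ± 0.85). Its relatives Loxl1 and Loxl2 rose from 2.97 to 8.39 FPKM (1.5 ± 0.38) and from 12.2 to 32.3 FPKM (1.4 ± 0.34). Plod2, which hydroxylates the lysines that Lox joins, had 16 FPKM in sham and 46.7 FPKM in 5/6Nx (log2 fold change 1.55 ± 0.38). Serpinh1, the collagen chaperone of the endoplasmic reticulum, was not called at 140.3 and 96.1 FPKM (-0.55 ± 0.27).

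The elastic fibre, protease and proteoglycan lists held 3 or 4 rises each and 0 falls, whereas the basement membrane list had 0 calls among 7 tested (median 0.27) and the integrins 0 among 9 (median 0.11). On the elastic fibre list (13 tested, median 0.06) the latent TGF-beta binding protein Ltbp2 rose most, with 2.61 FPKM in sham and 18.3 FPKM in 5/6Nx (log2 fold change 2.81 ± 0.69). Fibrillin 1 (Fbn1, log2 fold change 1.48 ± 0.36) and the microfibril protein Mfap5 (1.32 ± 0.32) also rose. Among 21 proteases and inhibitors (median 0.39), Timp1, an inhibitor of matrix metalloproteinases, had 16.7 FPKM in sham and 116 FPKM in 5/6Nx (log2 fold change 2.8 ± 0.69). Its paralogs Timp2, Timp3 and Timp4 were not called, with log2 fold changes of 0.31 ± 0.28, 0.26 ± 0.29 and -0.55 ± 0.48. Serpine2, protease nexin 1, an inhibitor of thrombin and other serine proteases, rose from 47.6 to 102 FPKM (1.09 ± 0.28). Macrophage elastase, Mmp12, was listed at 0.0501 and 2.27 FPKM without a call, its log2 fold change of 5.5 ± 4.19 having the widest error of those named here. On the proteoglycan list (12 tested, 4 rises, median 0.61) biglycan, Bgn, a TLR-binding small proteoglycan, had 116 FPKM in sham and 271 FPKM in 5/6Nx (log2 fold change 1.23 ± 0.30). The hyaluronan synthase Has1 (1.5 ± 0.40), the hyaluronan receptor Cd44 (0.92 ± 0.28) and Prelp (0.93 ± 0.28) rose as well. Prg4 (lubricin, a mucin-like lubricant) was on no list and rose from 11.7 to 68.4 FPKM, a log2 fold change of 2.55 ± 0.69.

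Of 20 tested TGF-beta and BMP family loci 5 rose and 1 fell, with a median log2 fold change of 0.72. Apart from Ltbp2 the rises were Inhbb, Fst, Tgfb2 and Fstl1. Inhbb, the activin B subunit, had 0.791 FPKM in sham and 5.39 FPKM in 5/6Nx (log2 fold change 2.77 ± 0.68). Follistatin, Fst, which binds activins, had 1.01 FPKM in sham and 4.08 FPKM in 5/6Nx (log2 fold change 2.02 ± 0.54), so that ligand and antagonist were both higher. Tgfb2 had 21.3 FPKM in sham and 54.9 FPKM in 5/6Nx (log2 fold change 1.37 ± 0.34), whereas Tgfb1 was not called at 7.34 and 12 FPKM (0.71 ± 0.34). Pmepa1, a target that dampens TGF-beta signals in human and mouse cells, rose from 15.4 to 34.2 FPKM (1.15 ± 0.30) and was named after its values were seen. The fall was Bmp10, an atrial ligand described below. Smooth muscle and myofibroblast contractile genes showed 0 calls among 13 loci (median -0.04), and Acta2, the actin of myofibroblasts, had 57.8 FPKM in sham and 56.4 FPKM in 5/6Nx (log2 fold change -0.04 ± 0.29). The fibroblast markers had 0 calls among 11 tested (median 0.31); their summed level was 2686 FPKM in sham and 3666 FPKM in 5/6Nx.

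**Figure D2:**
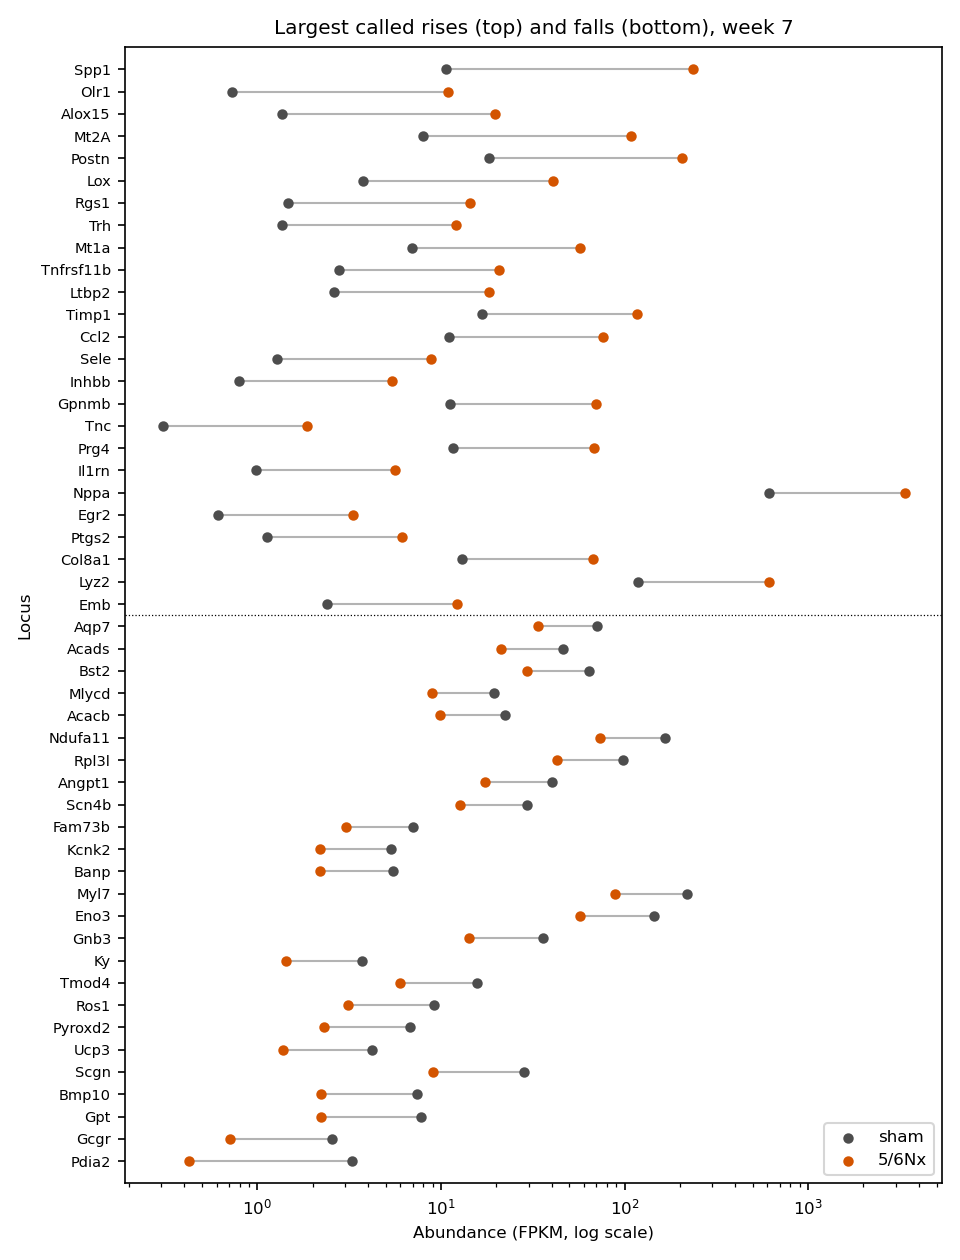
Levels in sham (grey) and 5/6Nx (orange) at week 7, in FPKM on a log scale, of the 25 named loci with the largest called rises and the 25 with the largest called falls. Lines join the 2 group values of a locus; Spp1 spans 10.6 to 234 FPKM at the top and Pdia2 3.26 to 0.425 FPKM at the bottom.

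Macrophage and monocyte markers were higher as a group. Of 18 tested markers 8 rose, 0 fell and 17 were above sham, with a median log2 fold change of 1.16. Their summed level went from 709 to 1345 FPKM, and none was at 0 in both groups. Bulk RNA cannot tell more cells of a type from more RNA per cell, here or for any gene below. Lyz2, the lysozyme of macrophages and granulocytes, lies at chr7:60337949-60343246 and had 118 FPKM in sham and 608 FPKM in 5/6Nx (log2 fold change 2.36 ± 0.58). Cd68, a lysosomal protein of macrophages, had 5.02 FPKM in sham and 23 FPKM in 5/6Nx (log2 fold change 2.19 ± 0.54). The tissue-macrophage receptors Mrc1 and Cd163 rose from 24.3 to 70.9 FPKM (1.54 ± 0.38) and from 14.2 to 32.6 FPKM (1.2 ± 0.32). Itgam, the CD11b integrin chain, rose with a log2 fold change of 1.82 ± 0.45, Mpeg1 with 1.89 ± 0.47 and the inhibitory Fc receptor Fcgr2b with 2.26 ± 0.56. Lyz2 has a near-identical neighbour, Lyc2, and how reads were split between such copies, here and among the globins and metallothioneins, is not stated. Csf1r, the receptor for the main macrophage growth factor, was not called at 11.7 and 18.5 FPKM (0.66 ± 0.32). Cd74 was the marker below sham, at -0.41 ± 0.34, and was not called. Of the immune cells with other markers, T, B and NK cells had 0 calls among 8 tested (median -0.26, and 0.60 over members that reached 5 FPKM), and neutrophils and mast cells 0 among 6 (median 0.00), with Mpo and Mcpt1 at 0 in both groups.

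Other myeloid genes among the calls were named after their values were seen. They include the C-type lectins Clec7a, Clec4d and Clec4e, pattern receptors that signal through Syk, with log2 fold changes of 2.22 ± 0.55, 2.01 ± 0.49 and 1.98 ± 0.49. The endosomal RNA receptors Tlr7 and Tlr8 rose from 4.49 to 11.7 FPKM (1.38 ± 0.34) and from 2.62 to 7.85 FPKM (1.58 ± 0.39). Galectin 3, Lgals3, a lectin of activated macrophages that is used as a marker in heart failure, had 39.3 FPKM in sham and 139 FPKM in 5/6Nx (log2 fold change 1.82 ± 0.45). Lilrb4, an inhibitory receptor of myeloid cells, had 4.9 FPKM in sham and 22.4 FPKM in 5/6Nx (log2 fold change 2.19 ± 0.54). The acute phase genes Lbp (2.07 ± 0.51) and Orm1 (2.15 ± 0.59) and the chitinase-like Chi3l1 (1.96 ± 0.48) rose too. By the rule for the largest rises, Rgs1, which turns off chemokine receptor signals, had 1.47 FPKM in sham and 14.5 FPKM in 5/6Nx (log2 fold change 3.3 ± 0.81), Il1rn, the natural antagonist of interleukin-1, had 0.978 FPKM in sham and 5.6 FPKM in 5/6Nx (log2 fold change 2.52 ± 0.62), and Emb (embigin) had 2.39 FPKM in sham and 12.2 FPKM in 5/6Nx (log2 fold change 2.35 ± 0.58).

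Most chemokine genes were not called, and those that were called rose. Of 22 tested chemokine and receptor loci 4 rose and 0 fell, with a median of 0.68, while 1.43% of all tested loci rose. Ccl2, the main monocyte attractant, lies at chr10:69047090-69048889 and had 11 FPKM in sham and 76.4 FPKM in 5/6Nx (log2 fold change 2.8 ± 0.69). Its neighbour Ccl7 on the same chromosome, which acts on the same receptor, had 6.11 FPKM in sham and 26 FPKM in 5/6Nx (log2 fold change 2.09 ± 0.52). The receptor Ccr1 (1.19 ± 0.35) and Cxcl16, a ligand of the chemokine receptor CXCR6 (1.07 ± 0.30), made up the 4. Among the 18 not called, Ccl5 had 16.5 FPKM in sham and 9.48 FPKM in 5/6Nx (log2 fold change -0.8 ± 0.42) and Cxcl9 had 10.9 FPKM in sham and 8.41 FPKM in 5/6Nx (log2 fold change -0.38 ± 0.55). On the adhesion list 1 of 8 rose (median 0.43, and 0.06 over members that reached 5 FPKM), Sele, the E-selectin of activated endothelium, with 1.28 FPKM in sham and 8.87 FPKM in 5/6Nx (log2 fold change 2.79 ± 0.69). Vcam1 and Icam1 were not called, at log2 fold changes of 0.95 ± 0.29 and 0.81 ± 0.35. Endothelial markers had 0 calls among 10 tested (median 0.05), and their sum was 378 FPKM in sham and 390 FPKM in 5/6Nx.

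Complement genes had 6 rises and 0 falls among 19 tested loci, with a median of 0.97. Both components and brakes were among them. Serping1, the C1 inhibitor, had 54.7 FPKM in sham and 131 FPKM in 5/6Nx (log2 fold change 1.26 ± 0.31). Cd55, which breaks up convertases on cell membranes, had 13.4 FPKM in sham and 39.4 FPKM in 5/6Nx (log2 fold change 1.55 ± 0.38). Cfb, the enzyme precursor of the alternative pathway, C6 and C1qc rose with log2 fold changes of 1.23 ± 0.35, 1.43 ± 0.40 and 1.15 ± 0.32. On the lysosome list 4 of 17 rose and 0 fell (median 0.45). Gpnmb, a glycoprotein of lipid-laden macrophages, had 11.2 FPKM in sham and 70.2 FPKM in 5/6Nx (log2 fold change 2.65 ± 0.65), and cathepsin L, Ctsl1, had 334 FPKM in sham and 708 FPKM in 5/6Nx (log2 fold change 1.08 ± 0.27). Ctss and Ctsk, proteases that cut class II chaperone and collagen, had log2 fold changes of 1.56 ± 0.39 and 1.14 ± 0.29, while cathepsin D, Ctsd, was not called at 135 and 133 FPKM (-0.01 ± 0.27).

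Antigen presentation and interferon genes were mostly not called, as was the case for all tested loci, of which 1.75% were called. Ctss was the 1 riser among 12 antigen presentation loci, whose median was -0.51, and 0 fell. The immunoproteasome subunit Psmb8 was not called at 8.91 and 5.15 FPKM (-0.79 ± 0.40), nor was the transporter Tap1 at 2.83 and 1.8 FPKM (-0.65 ± 0.40). Of 19 interferon-stimulated loci 0 rose and 1 fell (median -0.13). The fall was Bst2 (tetherin), with 64.1 FPKM in sham and 29.5 FPKM in 5/6Nx (log2 fold change -1.12 ± 0.33). In the interleukin-6 and acute phase list 2 of 17 rose (median 0.31), the oncostatin M receptor Osmr with 13.8 FPKM in sham and 32.1 FPKM in 5/6Nx (log2 fold change 1.22 ± 0.30) and the protease inhibitor Serpina3n with 0.635 FPKM in sham and 2.88 FPKM in 5/6Nx (log2 fold change 2.18 ± 0.65). In the TNF list 2 of 14 rose (median 0.59). Tnfrsf11b, osteoprotegerin, the soluble decoy receptor of RANK ligand, had 2.77 FPKM in sham and 20.7 FPKM in 5/6Nx (log2 fold change 2.9 ± 0.72), and Tnfaip6, a hyaluronan-binding protein, had 4.11 FPKM in sham and 14.3 FPKM in 5/6Nx (log2 fold change 1.8 ± 0.44). Among S100 genes and annexins 3 of 12 rose (median 0.20), namely S100a4, S100a6 and Anxa1, at 1.3 ± 0.32, 1.16 ± 0.29 and 1.03 ± 0.25. The neutrophil alarmins S100a8 and S100a9 were not called, at -0.08 ± 0.46 and -0.76 ± 0.36.

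Of 34 tested loci that carry a microRNA symbol 1 was called, and 19 were above sham (median 0.16). It was the Mir223 locus at chrX:66202527-66206773, named after its value was seen, with 5.91 FPKM in sham and 17.4 FPKM in 5/6Nx (log2 fold change 1.56 ± 0.46). miR-223 is a microRNA of myeloid cells. Its mature arms are shown because it was the 1 called microRNA locus; the bases from position 2 to 8, the seed that pairs with targets, are in capitals, and the sequences are those of RefSeq on the rat build GRCr8.
rno-miR-223-3p: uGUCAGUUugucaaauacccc
rno-miR-223-5p: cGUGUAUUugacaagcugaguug
The library measures RNA of the locus and not the mature microRNA. Mir221, which was not called, went from 2.23 to 5.63 FPKM (1.34 ± 0.55), and Mir21 from 1.91 to 3.24 FPKM (0.77 ± 0.64). Mir208b, which lies within Myh7, was listed with the same coordinates as the Myh6 and Myh7 locus and, unlike it, above sham, at 0.8 ± 0.28; it was not called. The Mir27b locus was listed at 0 in sham and 108 FPKM in 5/6Nx, was not called and shares its coordinates with the Mir3074 locus.

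**Figure D3:**
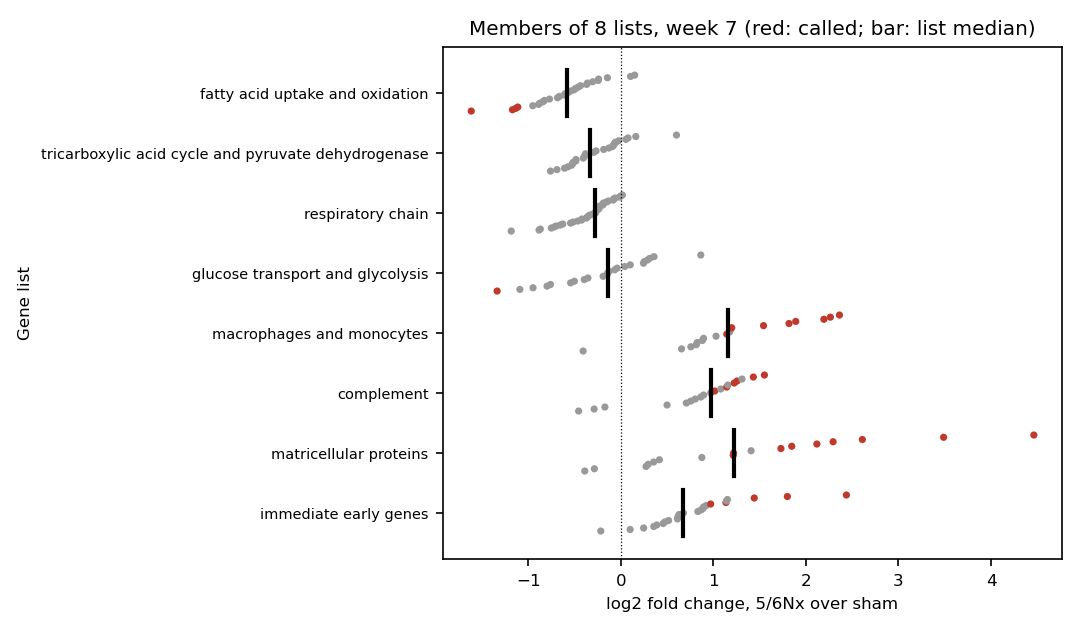
Log2 fold change at week 7 (x axis, 5/6Nx over sham) of each tested member of 8 gene lists, with called members in red and the list median as a black bar. Fatty acid oxidation has a median of -0.58 and matricellular proteins one of 1.22.

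Enzymes of oxidised lipids and their receptor were among the largest rises. Of 18 loci on the eicosanoid and lipoprotein receptor list 4 rose and 0 fell (median 0.66). Olr1, the LOX-1 receptor for oxidised low-density lipoprotein, lies at chr4:211883404-211905489 and had 0.731 FPKM in sham and 10.9 FPKM in 5/6Nx (log2 fold change 3.9 ± 0.96). Alox15, a lipoxygenase that oxygenates arachidonic and linoleic acid, had 1.36 FPKM in sham and 19.7 FPKM in 5/6Nx (log2 fold change 3.85 ± 0.95). The inducible cyclooxygenase Ptgs2 had 1.13 FPKM in sham and 6.13 FPKM in 5/6Nx (log2 fold change 2.44 ± 0.60), while the constitutive Ptgs1 was not called at 5.16 and 7.81 FPKM (0.6 ± 0.33). Msr1, a scavenger receptor of macrophages, rose from 5.48 to 15.5 FPKM (1.5 ± 0.37). On the antioxidant list 2 of 26 rose (median 0.21): Hmox1, haem oxygenase 1, had 7.42 FPKM in sham and 21.4 FPKM in 5/6Nx (log2 fold change 1.53 ± 0.38), and Cybb, the catalytic subunit of the phagocyte oxidase, had 12.9 FPKM in sham and 37.2 FPKM in 5/6Nx (log2 fold change 1.53 ± 0.38). Superoxide dismutases 1 and 2 and catalase were not called, with log2 fold changes of -0.32 ± 0.27 for Sod1, -0.21 ± 0.28 for Sod2 and -0.27 ± 0.27 for Cat.

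Metallothioneins, small cysteine-rich proteins that bind zinc and copper and that metals and glucocorticoids induce, were among the largest rises. Mt2A, at chr19:11283092-11283867, had 7.98 FPKM in sham and 109 FPKM in 5/6Nx (log2 fold change 3.77 ± 0.93), and Mt1a, its neighbour at chr19:11277132-11278149, had 6.93 FPKM in sham and 57.2 FPKM in 5/6Nx (log2 fold change 3.04 ± 0.75). These were 2 of the 11 tested metallothionein and iron loci, of which 0 fell (median 0.61). The zinc exporter Slc30a1, also a target of the metal-responsive factor, was not called at 13.7 and 15.2 FPKM (0.16 ± 0.27). Hepcidin, Hamp, was not called at 53.5 and 96.5 FPKM (0.85 ± 0.34), nor the transferrin receptor Tfrc at 43.4 and 72.5 FPKM (0.74 ± 0.30). Among 16 corticosteroid receptors and targets 4 rose and 0 fell (median 0.28). Besides Mt2A these were Hsd11b1, which regenerates active glucocorticoid in the cell, with 55.4 FPKM in sham and 127 FPKM in 5/6Nx (log2 fold change 1.19 ± 0.29), Sgk1, a kinase induced by aldosterone and glucocorticoids, with 22.3 FPKM in sham and 44.6 FPKM in 5/6Nx (log2 fold change 1.0 ± 0.28), and Errfi1 with 11.2 FPKM in sham and 24.8 FPKM in 5/6Nx (log2 fold change 1.14 ± 0.31). Fkbp5 and Tsc22d3, targets of the glucocorticoid receptor, were not called, at 0.12 ± 0.28 and 0.32 ± 0.27.

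Immediate early genes, which are switched on within minutes to hours of a stimulus, lay above sham in 24 of 25 tested loci; 5 rose, 0 fell and the median was 0.68. The zinc finger factors Egr2 and Egr3 rose from 0.612 to 3.32 FPKM (2.44 ± 0.60) and from 0.86 to 3 FPKM (1.8 ± 0.44). Egr1, the most studied of the family, had 6.25 FPKM in sham and 13.8 FPKM in 5/6Nx (log2 fold change 1.14 ± 0.29). Dusp6, a phosphatase of ERK, had 8.77 FPKM in sham and 23.8 FPKM in 5/6Nx (log2 fold change 1.44 ± 0.36), and the factor Klf4 had 64.8 FPKM in sham and 127 FPKM in 5/6Nx (log2 fold change 0.97 ± 0.28). Fos was not called at 5.03 and 8.05 FPKM (0.68 ± 0.32), nor was Jun at 17.4 and 18.7 FPKM (0.1 ± 0.32). Among C/EBP and stress factors 1 of 13 rose (median 0.29), Cebpa, with 0.754 FPKM in sham and 2.81 FPKM in 5/6Nx (log2 fold change 1.9 ± 0.52). Of 15 clock loci 1 rose (median -0.13), Bhlhe40, at 0.97 ± 0.27; Arntl had 2.31 FPKM in sham and 4.95 FPKM in 5/6Nx (log2 fold change 1.1 ± 0.37) and Dbp had 21.3 FPKM in sham and 18.3 FPKM in 5/6Nx (log2 fold change -0.22 ± 0.34), and neither was called. No source gives the time of day at which hearts were taken, and its part in these values was not tested. Rbm3, an RNA-binding protein known from cold-exposed cells, had 64.2 FPKM in sham and 243 FPKM in 5/6Nx (log2 fold change 1.92 ± 0.47).

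Promoters of 5 genes named above that rose are shown because short motifs can be read in them; they were chosen after values and matches were seen. Each is the RefSeq sequence on GRCr8 from 250 bases before to 50 after the start site, and capitals mark every match to a searched motif. Nppa lies at chr5:163711934-163712233 (plus strand), Postn at chr2:140677811-140678110 (plus), Mt1a at chr19:10832926-10833225 (minus), Mt2A at chr19:10838659-10838958 (minus) and Egr2 at chr20:21054392-21054691 (minus).
Nppa: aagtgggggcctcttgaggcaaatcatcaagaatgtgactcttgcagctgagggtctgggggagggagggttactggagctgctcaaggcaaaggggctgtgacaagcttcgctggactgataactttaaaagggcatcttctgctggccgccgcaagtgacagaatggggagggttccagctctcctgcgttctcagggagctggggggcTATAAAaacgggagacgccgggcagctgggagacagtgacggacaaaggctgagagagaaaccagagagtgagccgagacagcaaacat
Postn: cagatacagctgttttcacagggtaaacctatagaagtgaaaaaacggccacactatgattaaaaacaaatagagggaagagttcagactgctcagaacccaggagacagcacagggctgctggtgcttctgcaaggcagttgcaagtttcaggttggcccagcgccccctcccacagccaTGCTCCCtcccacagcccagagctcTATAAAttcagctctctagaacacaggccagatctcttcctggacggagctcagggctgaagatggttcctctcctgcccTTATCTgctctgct
Mt1a: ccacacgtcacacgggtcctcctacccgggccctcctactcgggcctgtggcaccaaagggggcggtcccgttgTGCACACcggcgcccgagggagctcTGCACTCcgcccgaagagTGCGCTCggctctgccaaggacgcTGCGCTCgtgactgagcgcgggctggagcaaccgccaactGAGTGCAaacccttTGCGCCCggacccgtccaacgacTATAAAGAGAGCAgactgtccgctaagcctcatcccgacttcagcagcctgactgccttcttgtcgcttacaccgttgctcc
Mt2A: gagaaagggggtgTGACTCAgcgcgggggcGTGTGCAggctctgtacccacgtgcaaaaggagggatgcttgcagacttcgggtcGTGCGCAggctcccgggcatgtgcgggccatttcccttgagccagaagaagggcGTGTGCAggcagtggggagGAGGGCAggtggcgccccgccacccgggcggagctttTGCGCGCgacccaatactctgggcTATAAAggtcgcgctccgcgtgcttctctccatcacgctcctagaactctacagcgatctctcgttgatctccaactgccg
Egr2: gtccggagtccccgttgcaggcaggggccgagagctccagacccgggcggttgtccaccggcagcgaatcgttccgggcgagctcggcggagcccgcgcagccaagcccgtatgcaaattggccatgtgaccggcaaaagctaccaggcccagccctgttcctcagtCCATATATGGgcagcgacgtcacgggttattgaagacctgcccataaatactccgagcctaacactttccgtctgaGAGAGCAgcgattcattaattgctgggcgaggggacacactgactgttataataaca
The motifs were read on both strands, and matches of different motifs may overlap. The first was TATAAA, the TATA box. For AP-1 the letters were TGANTCA, for the cAMP element TGACGTCA, for MCAT (the site of TEAD factors) CATTCC and for GATA factors AGATAA. The CArG box, bound by serum response factor, was searched as well. The metal response core, TGCNCNC, was added after values were seen. Of the genes that rose and have 1 symbol, 129 of 177 had a promoter in the table, as did 23 of 29 that fell. Where a gene has several promoters, its share counts the last one, while sequences and positions shown are of the first. The shares can therefore differ slightly from the matches in the promoters shown. TATAAA stood in 23.3% of the promoters of genes that rose, in 4.35% (1 gene) of those of genes that fell, in 7.07% of 7724 promoters of tested genes and in 14.2% of all 33469. It starts 39 bases before the start site in Nppa, 44 before in Postn, 32 before in Mt1a and 31 before in Mt2A. AP-1 matches stood in 10.1% of risers, 8.7% (2 genes) of genes that fell, 5.15% of tested genes and 7.33% of all promoters. The cAMP element stood in 1.55% of risers, 0% of genes that fell and 3.21% of tested genes. For MCAT these shares were 11.6%, 13% and 11.2%, and for GATA 8.53%, 13% and 6.47%. CArG boxes stood in 2.33% of risers (3 genes) and 1.15% of tested genes; Egr2 holds 1 and Egr1 holds 2. The metal response core is frequent, at 54.3% of risers and 60.6% of tested genes, and occurs 7 times in Mt1a and 5 times in Mt2A. A match describes letters only.

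**Figure D4:**
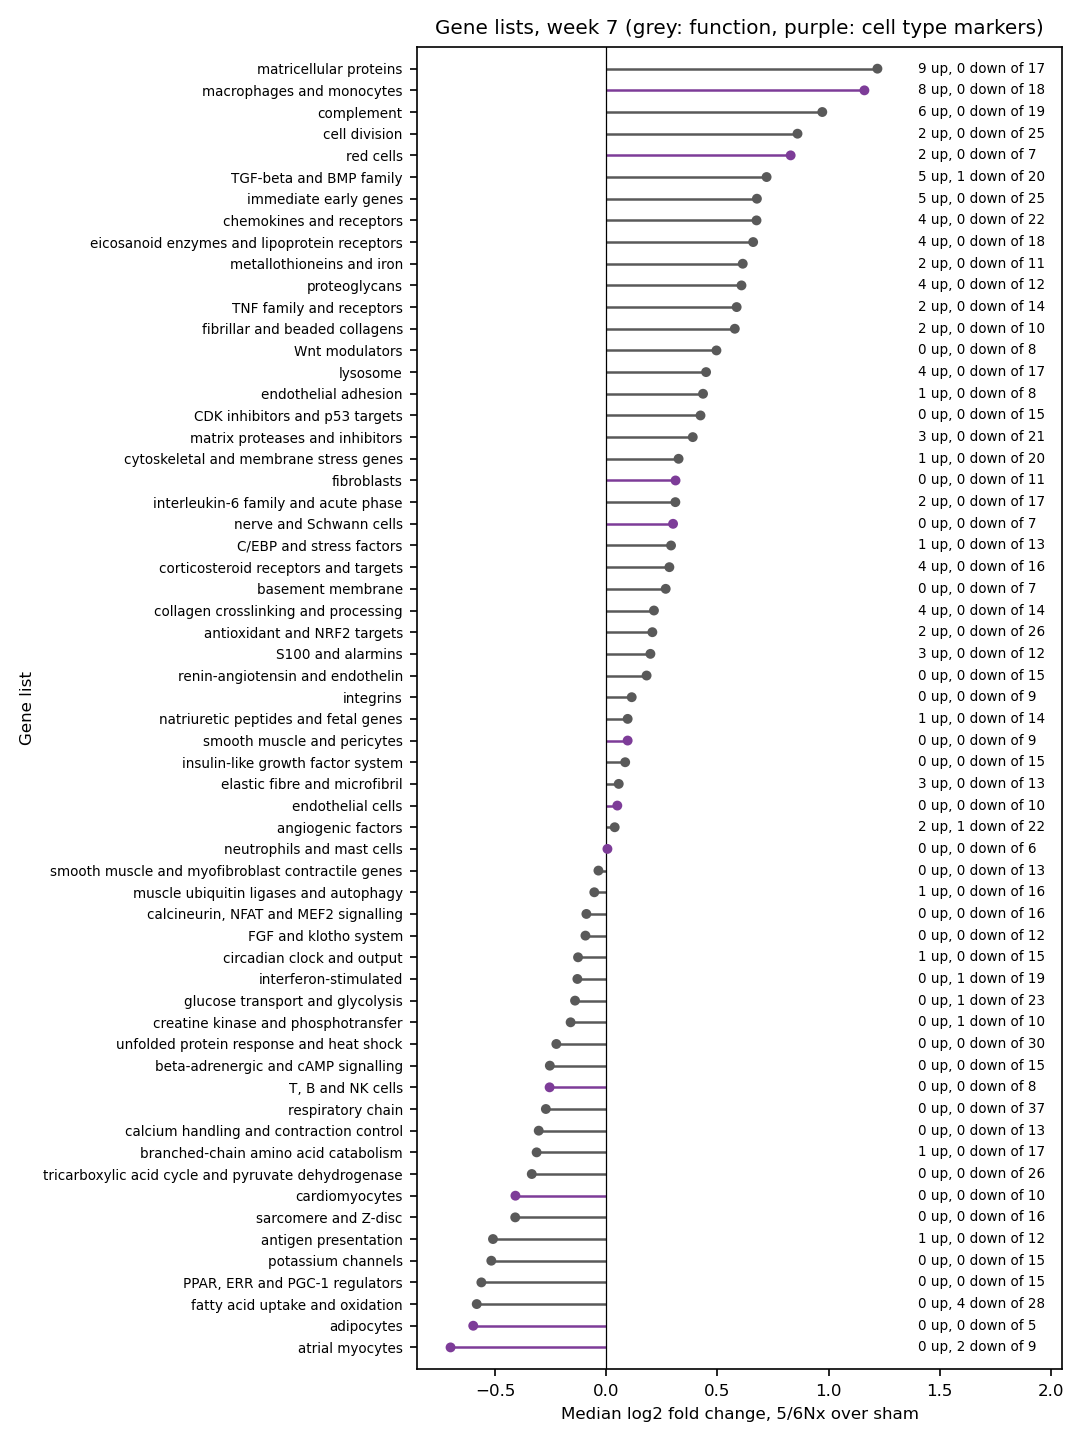
Median log2 fold change at week 7 (x axis, 5/6Nx over sham) of the gene lists with at least 5 tested members, function lists in grey and cell type markers in purple, with the number of called members beside each. Matricellular proteins (1.22) and macrophages and monocytes (1.16) are at the top, atrial myocytes (-0.70) at the bottom; over all tested loci the median is -0.01.

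Fuel metabolism genes lay below sham, mostly without a call. Of 28 tested loci for fatty acid uptake and oxidation 26 were below sham, 4 fell and 0 rose (median -0.58). Over all tested loci 0.315% fell and 1.43% rose. Ucp3, a mitochondrial carrier that follows fatty acid load in muscle, had 4.23 FPKM in sham and 1.38 FPKM in 5/6Nx (log2 fold change -1.61 ± 0.47). Acacb, which makes the malonyl-CoA that blocks fatty acid entry into mitochondria, had 22.2 FPKM in sham and 9.88 FPKM in 5/6Nx (log2 fold change -1.17 ± 0.29). Mlycd, which removes malonyl-CoA, had 19.6 FPKM in sham and 8.91 FPKM in 5/6Nx (log2 fold change -1.13 ± 0.30), so that the enzymes making and removing malonyl-CoA were both lower. The short-chain dehydrogenase Acads had 46 FPKM in sham and 21.3 FPKM in 5/6Nx (log2 fold change -1.11 ± 0.33). Ech1, an auxiliary enzyme of the same pathway and 1 of the 15 most abundant called loci, had 343 FPKM in sham and 181 FPKM in 5/6Nx (log2 fold change -0.92 ± 0.27). The gate enzyme Cpt1b was not called at 147 and 96.5 FPKM (-0.61 ± 0.27), nor was the carrier Fabp3 at 4194 and 2268 FPKM (-0.89 ± 0.29). Pdk4, which shuts pyruvate out of oxidation, had 245 FPKM in sham and 182 FPKM in 5/6Nx (log2 fold change -0.43 ± 0.33) and was not called. Aqp7, a glycerol channel of fat and heart cells, fell from 70.5 to 33.7 FPKM (-1.06 ± 0.30).

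The regulators of these genes showed 0 calls among 15 PPAR, ERR and PGC-1 loci, with 1 above sham and a median of -0.56. Over all tested loci 1.75% were called. Ppara had 15.8 FPKM in sham and 9.9 FPKM in 5/6Nx (log2 fold change -0.67 ± 0.40) and Ppargc1a 38.4 FPKM in sham and 28.7 FPKM in 5/6Nx (log2 fold change -0.42 ± 0.40). For the tricarboxylic acid cycle and pyruvate dehydrogenase 0 of 26 were called (median -0.34), and for the respiratory chain 0 of 37 (median -0.27). Ndufa11, a complex I subunit outside that list, fell from 165 to 73.2 FPKM (-1.17 ± 0.33). Among 17 branched-chain amino acid loci 1 rose and 0 fell (median -0.31). The riser was Bcat1, the cytosolic transaminase, with 2.35 FPKM in sham and 6.47 FPKM in 5/6Nx (log2 fold change 1.46 ± 0.38); the mitochondrial Bcat2 was not called at 31.6 and 15.8 FPKM (-1.0 ± 0.32). In glycolysis 0 of 23 rose and 1 fell (median -0.14). Eno3, the muscle enolase, had 144 FPKM in sham and 57.2 FPKM in 5/6Nx (log2 fold change -1.33 ± 0.33), whereas the ubiquitous Eno1 was not called at 143 and 139 FPKM (-0.04 ± 0.28). In the creatine kinase list 1 of 10 fell (median -0.16), Ckm, the muscle creatine kinase, with 333 FPKM in sham and 173 FPKM in 5/6Nx (log2 fold change -0.95 ± 0.28). Gpt, an alanine transaminase, fell from 7.76 to 2.21 FPKM (-1.81 ± 0.49), and Gcgr, the glucagon receptor, from 2.55 to 0.709 FPKM (-1.84 ± 0.52).

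Contraction and excitation genes lay below sham with few calls, where 1.75% of all tested loci were called. The sarcomere list had 0 calls among 16 loci and 2 above sham (median -0.41). By the rule for the largest falls, muscle genes outside it were Tmod4, a cap of thin filaments in muscle, from 15.6 to 5.95 FPKM (-1.39 ± 0.39), and Ky, a muscle protease-like protein, from 3.7 to 1.42 FPKM (-1.38 ± 0.34). All 10 cardiomyocyte markers were below sham, 0 were called, and their sum went from 58275 to 45650 FPKM; Myl2, the ventricular light chain, had 23017 FPKM in sham and 19553 FPKM in 5/6Nx (log2 fold change -0.24 ± 0.31). Calcium handling had 0 calls and 0 above sham among 13 loci (median -0.30), and the pump Atp2a2 had 3147 FPKM in sham and 2168 FPKM in 5/6Nx (log2 fold change -0.54 ± 0.26). Potassium channels had 0 calls among 15 (median -0.52). Kcnk2, the stretch-activated TREK-1 channel outside that list, fell from 5.37 to 2.19 FPKM (-1.29 ± 0.37). Scn4b, a beta subunit of the sodium channel, had 29.6 FPKM in sham and 12.7 FPKM in 5/6Nx (log2 fold change -1.22 ± 0.30). Gnb3, a G protein beta subunit, had 35.9 FPKM in sham and 14.2 FPKM in 5/6Nx (log2 fold change -1.34 ± 0.33), and Rpl3l, the striated muscle form of a ribosomal protein, had 98.3 FPKM in sham and 42.6 FPKM in 5/6Nx (log2 fold change -1.21 ± 0.30). Beta-adrenergic signalling had 0 calls among 15 (median -0.25) and calcineurin signalling 0 among 16 (median -0.09).

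Markers of tissue beside the ventricular wall also moved. Of 9 tested atrial genes 6 lay below sham and 3 above, 0 rose and 2 fell. Their median was -0.70, the values ran from -1.73 to 0.68, and their sum went from 429 to 241 FPKM. Dkk3, which was not called, was among those above sham. Myl7, the atrial myosin light chain, at chr14:86828587-86831173, had 219.9 FPKM in sham and 88.4 FPKM in 5/6Nx (log2 fold change -1.31 ± 0.32). Bmp10, a ligand of the atrial and trabecular muscle, had 7.39 FPKM in sham and 2.23 FPKM in 5/6Nx (log2 fold change -1.73 ± 0.43). Sarcolipin, Sln, was not called at 69 and 29.1 FPKM (-1.25 ± 0.38). Nppa, which atria also make, went the other way. Whether the amount of atrial tissue in the samples differed was not tested. Red cell genes had 2 rises and 0 falls among 7 (median 0.83; sum 2408 to 4382 FPKM): the alpha globin locus Hba-a2 had 463 FPKM in sham and 1002 FPKM in 5/6Nx (log2 fold change 1.11 ± 0.27) and Alas2, the haem synthesis enzyme of erythroid cells, had 10.8 FPKM in sham and 26.2 FPKM in 5/6Nx (log2 fold change 1.28 ± 0.34). The part of blood left in the tissue was not tested. Adipocyte markers had 0 calls among 5 tested (median -0.60), with Ucp1 at 0 in both groups, and Adipoq had 2.39 FPKM in sham and 0.817 FPKM in 5/6Nx (log2 fold change -1.55 ± 0.60).

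Hormone and growth factor genes gave single calls. Trh, the precursor of thyrotropin-releasing hormone, which the heart also makes, had 1.36 FPKM in sham and 12 FPKM in 5/6Nx (log2 fold change 3.14 ± 0.78). Galanin, Gal, was listed at 0 in sham and 2.14 FPKM in 5/6Nx and was called. Proenkephalin, Penk, was not called at 330.2 and 185 FPKM (-0.84 ± 0.27). Of 22 angiogenic factors 2 rose and 1 fell (median 0.04). Figf (VEGF-D, a lymphatic growth factor) had 7.39 FPKM in sham and 23.6 FPKM in 5/6Nx (log2 fold change 1.68 ± 0.41) and Hgf had 2.23 FPKM in sham and 4.95 FPKM in 5/6Nx (log2 fold change 1.15 ± 0.34). Angpt1, which keeps vessels stable through the receptor Tek, fell, with 40.5 FPKM in sham and 17.4 FPKM in 5/6Nx (log2 fold change -1.22 ± 0.30); its counterpart Angpt2 was not called at 2.8 and 5.4 FPKM (0.95 ± 0.38). Fgf23, the phosphate-lowering hormone of bone that rises in kidney disease, was low in the ventricle at 0.358 FPKM in sham and 2.81 FPKM in 5/6Nx (log2 fold change 2.97 ± 1.04) and not called, and of 12 FGF loci 0 were called. The FGF23 receptor Fgfr4 was under the level tested, at 0.031 and 0.068 FPKM. The renin-angiotensin and endothelin list had 0 calls among 15 (median 0.18, and 0.51 over members that reached 5 FPKM); Ace had 8.55 FPKM in sham and 12.4 FPKM in 5/6Nx (log2 fold change 0.54 ± 0.29) and Agtr1a 2.39 FPKM in sham and 2.34 FPKM in 5/6Nx (log2 fold change -0.03 ± 0.39). Il6 was not tested, at 0.173 and 0.581 FPKM.

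Cell division genes had 2 rises and 0 falls among 25 tested loci and a median of 0.86, which was 0.31 over the 7 members that reached 5 FPKM in either group. Top2a, the topoisomerase of dividing cells, had 2.06 FPKM in sham and 4.4 FPKM in 5/6Nx (log2 fold change 1.1 ± 0.32), and Prc1, a cytokinesis protein, had 2.49 FPKM in sham and 6.57 FPKM in 5/6Nx (log2 fold change 1.4 ± 0.37). Cdk1 had 2.32 FPKM in sham and 5.03 FPKM in 5/6Nx (log2 fold change 1.11 ± 0.45) and was not called. CDK inhibitors and p53 targets had 0 calls among 15 (median 0.42). Vimentin, Vim, the intermediate filament of mesenchymal cells, had 172 FPKM in sham and 331 FPKM in 5/6Nx (log2 fold change 0.94 ± 0.27) and was the 1 call among 20 cytoskeletal genes (median 0.32). The unfolded protein response and heat shock list had 0 calls among 30 (median -0.22). Pdia2, a protein disulfide isomerase on no list, had the largest fall, with 3.26 FPKM in sham and 0.425 FPKM in 5/6Nx (log2 fold change -2.94 ± 0.84). Further large falls were Scgn, a calcium sensor of endocrine cells, with 28.4 FPKM in sham and 9.03 FPKM in 5/6Nx (log2 fold change -1.65 ± 0.42), the receptor kinase Ros1 with 9.2 FPKM in sham and 3.13 FPKM in 5/6Nx (log2 fold change -1.55 ± 0.38), and Pyroxd2, Banp and Fam73b at log2 fold changes of -1.55 ± 0.42, -1.3 ± 0.34 and -1.22 ± 0.36.

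The same surgery at earlier weeks gave fewer calls, each week against sham animals of its own. Called loci numbered 0 at week 2 (0% of those tested), 47 at week 4 (0.334%) and 75 at week 5 (0.55%). Of these, 25 rose (0.177%) and 22 fell (0.156%) at week 4, and 54 rose (0.396%) and 21 fell (0.154%) at week 5. Of the week 7 calls with a value in the other week, 84.5% had the same sign at week 2, 84.3% at week 4 and 87.5% at week 5, against 56.2%, 61.4% and 61.5% of all loci. These shares rest on the column names of week 7: with its columns exchanged they would be 15.5%, 15.7% and 12.5%, against 43.8%, 38.6% and 38.5% of all loci, and every shared call below would have opposite directions. The loci that rose at week 7 had median log2 fold changes of 0.27, 0.29 and 0.35 at weeks 2, 4 and 5. Of the 47 calls of week 4, 7 were also called at week 7 (14.9% of these and 2.93% of the week 7 calls), all in the same direction: Col8a1, Fbn1, Myl7, Postn, Prc1, Sele and Top2a. For week 5 it was 18 of 75 (24% and 7.53%), all in the same direction, among them Alox15, Ccl2, Fn1, Ltbp2, Lyz2, Nppa and Postn. Postn had log2 fold changes of 0.54 ± 0.18, 0.91 ± 0.22, 1.32 ± 0.33 and 3.49 ± 0.86 at weeks 2, 4, 5 and 7, and Nppa had 0.35 ± 0.18, 0.44 ± 0.16, 1.08 ± 0.27 and 2.46 ± 0.61. Spp1 had 0.69 ± 0.21, 0.06 ± 0.18 and 0.62 ± 0.23 before its 4.46 ± 1.10 at week 7.

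**Figure D5:**
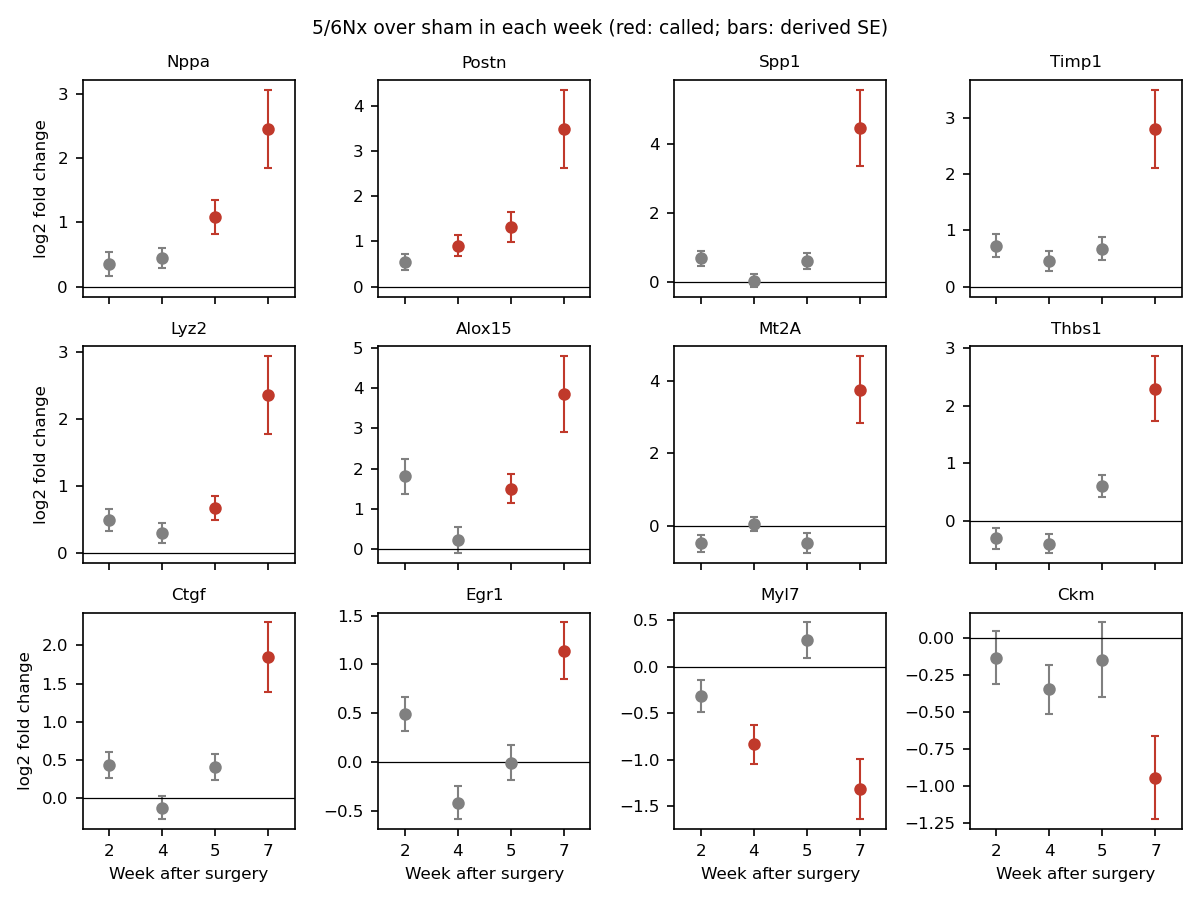
Log2 fold change of 5/6Nx over sham (y axis, with a scale of its own in each panel) at weeks 2, 4, 5 and 7 (x axis) for 12 genes, with bars of 1 derived standard error and called values in red. Postn is called at weeks 4, 5 and 7; Mt2A is near or below 0 before week 7 (-0.49 ± 0.23, 0.04 ± 0.19 and -0.48 ± 0.27).

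Whether a fold change differed between weeks was tested on the difference itself, divided by its derived error and adjusted by the Benjamini-Hochberg method over all loci with both values. Derived errors at week 7 are never under 0.247 of the log2 fold change, because deposited p-values stop at 5e-05. A locus whose fold change in the other week was near 0 or of the same sign could therefore hardly pass, whatever its size. A low count does not show that fold changes were alike. Against week 2 the difference passed in 0 of 12454 loci (624 had an unadjusted p under 0.05, smallest adjusted p 0.0587), against week 4 in 11 of 12394 (0.0888%) and against week 5 in 7 of 11928 (0.0587%). The 11 were higher at week 7 than at week 4, and among them were Egr1, Thbs1, Apold1, Atf3, Nov, Myl1, Ndrg1, Errfi1 and Ctgf. With derived errors raised to the median error of their week, Thbs1 and Atf3 still passed (adjusted p 0.0334 each), while Egr1, Apold1, Nov, Myl1, Ndrg1, Errfi1 and Ctgf did not (0.0645 to 0.175). With the week 7 columns exchanged, 280 loci would differ from week 2, 353 from week 4 and 301 from week 5. Because loci of opposite sign are nearly the only ones that can pass, these counts restate the shared signs given above. They are no further check of the column order. Thbs1 had -0.39 ± 0.16 at week 4 and 2.29 ± 0.57 at week 7, a difference of 2.68 ± 0.59 with an adjusted p of 0.0181. Sham levels of some of these genes also differed between the tables. Egr1 had 6.25 FPKM in sham at week 7 and 30.4 FPKM in sham at week 4, against 13.8 and 22.7 FPKM in 5/6Nx, and no source says if the tables of different weeks share a scale. Of the 7 loci that differed from week 5, Lyc2, Cebpa, Mt1a, Mt2A and the Mir199a and Mir214 locus were higher at week 7, and Myl7 and S100a9 lower. Myl7 did not pass with the raised errors (adjusted p 0.142). The Mir199a and Mir214 locus was unstable, at 4.525 ± 1.116 in week 4 and -4.83 ± 1.19 in week 5. Mt2A fold changes were -0.48 ± 0.27 at week 5 and 3.77 ± 0.93 at week 7 (difference 4.25 ± 0.97, adjusted p 0.0224). Its sham level was 26.6 FPKM at week 5 and 7.98 FPKM at week 7. Mt1a had 74 and 6.93 FPKM in sham and 56.5 and 57.2 FPKM in 5/6Nx at these weeks.

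The most abundant called loci, by mean level over both groups, mixed the groups above. After Nppa came Hba-a2, Ctsl1 and the leucine zipper protein gene Tsc22d1, which had 281 FPKM in sham and 624 FPKM in 5/6Nx (log2 fold change 1.15 ± 0.28). The membrane protein gene Emp1 had 120.3 FPKM in sham and 251 FPKM in 5/6Nx (log2 fold change 1.06 ± 0.27). A further 32 called loci had no name, 18 higher and 14 lower; the largest rises among them with a level in both groups were XLOC_011502, from 8.7 to 106 FPKM (3.6 ± 0.89), and XLOC_006379, at 3.24 ± 0.87.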

How the data were processed

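Total RNA of the left ventricle was sequenced in pairs from stranded libraries, per the labels' protocols. Per the submitters' processing notes the tools were TopHat2 2.0.10, Cufflinks 2.0.10 and Cuffdiff, with cutadapt, on build rn5; roles and order are not given. The authors' deposited tables, 1 per week, give per locus an abundance for each group (taken as FPKM), a test statistic (a score), a p-value and a q-value. A further deposited table gives the read count per library and the percent of bases at quality 30 and of reads mapped. With no column per library, the planned model could not be fitted and the authors' test stands. p-values measure the spread between 2 pools as modelled by Cuffdiff.

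Rows marked as tested were joined by locus (13906 rows to 13665 loci), and abundance had to reach 1 FPKM in either group, which all did. The log2 fold change is 5/6Nx over sham with no pseudocount. Its standard error is the fold change's absolute value over the normal score that the authors' two-sided p stands for. The difference between weeks was tested with Benjamini-Hochberg adjustment. A run on simulated fold changes kept the derived errors fixed, whereas in the data the smallest possible error grows with the fold change. That run therefore does not show how often large changes can pass. The 64 gene lists (1123 genes, 902 with a tested locus, 14 matched through another name) and the members were chosen with earlier results of these data known, so that they are no independent support. Named genes were the 25 largest called rises and falls, every called list member, the 15 most abundant calls, a panel of 28 genes, the 10 with the smallest adjusted p against each other week and up to 3 abundant uncalled members per list. Of the called loci 113 are outside this rule, and those named say so. A few loci that the rule takes in are counted but not reported here. Promoter and microRNA sequences are RefSeq's on GRCr8, and locus coordinates are rn5. Python 3.11.15, pandas 2.3.3, numpy 2.4.6, scipy 1.17.1 and matplotlib 3.10.9 were used.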

Additional observations from a re-analysis of the deposited data

Results flagged for a closer look

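The loci below are listed because their log2 fold change at week 7 differed from that of another week by the test of the difference itself (Benjamini-Hochberg adjusted p under 0.05 over all loci compared). Values are differences, week 7 less the other week. In every listed locus the fold change of the other week had the opposite sign to that of week 7. Derived errors at week 7 are never under 0.247 of the log2 fold change. A larger change of the same sign therefore hardly passes this test, whatever its size. Spp1, Postn and Nppa are not listed, and the list does not show which loci were most particular to week 7.

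Against week 4 the difference was 2.68 for Thbs1, 2.43 for Myl1 and 2.24 for Atf3, a stress-induced transcription factor. Atf3 was called lower at week 4 (from 16.6 to 6.25 FPKM) and was not called at week 7 (from 4.54 to 8.09 FPKM). The difference was 1.98 for Ctgf, 1.56 for Egr1, 1.55 for Nov and 1.54 for Apold1, an early response gene of endothelium. Ndrg1 and Errfi1 differed by 1.45 and 1.42, and the unnamed locus XLOC_009684 by 1.43. In 9 of the 11 loci that differed from week 4 the sham level was lower at week 7 than at week 4; the part of the sham groups in the differences was not tested.

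Against week 5 the difference was 4.25 for Mt2A and 3.43 for Mt1a. Lyc2, a lysozyme gene beside Lyz2, differed by 3.83 and the factor Cebpa by 2.87. The Mir199a and Mir214 locus, which spans 475.9 kb, differed by 6.07. It was called lower at week 5 (from 11.5 to 0.402 FPKM) and not called at week 7 (from 1.91 to 4.51 FPKM). Its log2 fold change was 4.525 ± 1.116 at week 4 and -4.83 ± 1.19 at week 5, so it was unstable between weeks and 6.07 is not particular to week 7. Myl7 differed by -1.60, which did not pass with derived errors raised to the median error (adjusted p 0.142). In 5 of the 7 loci that differed from week 5 the sham level was lower at week 7; Mt1a had 74 FPKM in sham at week 5 and 6.93 FPKM at week 7, against 56.5 and 57.2 FPKM in 5/6Nx. S100a9 differed by -2.47, called higher at week 5 (from 5.62 to 18.4 FPKM) and not called at week 7 (from 39.7 to 23.5 FPKM).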

How the results depend on the processing

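No paired analysis was possible because the tables hold no column per library, and for the same reason leaving out a pool was not run. The count of called loci, 239, was 137 at a q-value under 0.01 (117 higher, 20 lower) and 347 at a q-value under 0.10, with 84 lower in place of 43. It stayed within 1.5 times under a 2-fold minimum (226), an abundance of at least 5 FPKM (198), unjoined rows (253) and without loci of several symbols (238, chosen after seeing the data). With a pseudocount of 1 FPKM the median log2 fold change of risers was 1.24 in place of 1.48. Loci differing from weeks 2, 4 and 5 numbered 0, 11 and 7, and 2, 18 and 4 with at least 5 FPKM in both weeks. Against week 4, 3 loci (Atf3 and Thbs1 among them) passed when derived errors were raised to the week's median error, an alternative chosen after seeing the data, since an error derived from a p near 1 can be too small; against week 5 it was 6, without Myl7. With the week 7 columns exchanged, also chosen after seeing the data, the numbers were 280, 353 and 301. Of 128 recomputed list medians 4 moved by more than the list's median error, all with at least 5 FPKM: cell division (0.31 in place of 0.86), endothelial adhesion (0.06 in place of 0.43), renin-angiotensin and endothelin (0.51 in place of 0.18) and T, B and NK cells (0.60 in place of -0.26). At a q-value under 0.10 the number of calls moved by over 1.5 times, or from 0, in 14 of 64 lists, fatty acid oxidation from 4 to 9 among them. The 23.6 M reads of 1 of the 5/6Nx pools limit what can be seen at low levels.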
